A study of Mus musculus with 12 samples.

Results

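The 10 genes of hepcidin signalling and iron handling described here were read in 12 mouse livers: the hormone genes Hamp and Hamp2, the transferrin receptors Tfrc and Tfr2, the transferrin gene Trf, the iron exporter Slc40a1, the ferroxidase Cp, the ferritin chains Fth1 and Ftl1, and the heme oxygenase Hmox1. They were chosen by name, and each was read from the probe set that carries its gene symbol alone and has the highest mean signal over the arrays. Of the 10 genes, 8 had such a probe set and were tested, among 12760 genes tested in all. The other 2, Ftl1 and Trf, were represented only by probe sets assigned to several genes (3 probe sets for Ftl1 and 1 for Trf), so no level is given for them.

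Liver RNA was hybridised to Affymetrix arrays, one array per Balb/c mouse, in a study of acute murine autoimmune hepatitis. TGFB KO mice lacked TGF-β1 and were set against wild type mice, the series' controls being described as TGF-β1+/+ littermates. IFNko TGFB1 KO mice are labelled as knockouts of both TGF-β1 and IFN-γ and were set against INFko TGFB+ mice, which are labelled as knockouts of IFN-γ and whose label records TGFB as present without saying whether on 1 or 2 gene copies. Each of the 4 groups held 3 mice, and both groups of the last comparison are labelled with the IFN-γ knockout. Sex and age are not given in the labels. No cell type is named for either knockout, and a whole-liver measurement cannot tell fewer cells of a type from less RNA per cell.

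Hepcidin, the product of Hamp, is a peptide hormone made by hepatocytes. It binds ferroportin, the exporter encoded by Slc40a1, and causes its removal from the cell surface, so that hepatocytes, macrophages and gut cells keep their iron. Its transcription is raised by iron through BMP ligands and SMAD proteins, with hemojuvelin (Hjv), Hfe and Tfr2 as upstream partners, and by inflammation through IL-6 and STAT3. Hmox1, heme oxygenase, breaks heme down to biliverdin and frees its iron, and is strongly made by macrophages that take up red cells.

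On the targeted genes, Tgfb1 had signals of 71.2, 87.6 and 45.5 in TGFB KO livers, against 391, 455 and 110 in wild type, and 24.9, 52.1 and 43.8 in IFNko TGFB1 KO livers, against 221, 163 and 180 in INFko TGFB+. Ifng gave 83.9, 54.3 and 44.6 on the arrays labelled IFNko TGFB1 KO, against 7.56, 1.06 and 7.45 on those labelled INFko TGFB+, and 85.9, 94.3 and 202 in TGFB KO, against 23.3, 25.9 and 5.95 in wild type. All 3 arrays labelled IFNko TGFB1 KO thus read above every wild type array. Where this probe set lies relative to the deleted part of Ifng is not given, so it checks the label neither way, and the loss of IFN-γ is taken from the labels alone. All 9 measured hepatocyte markers were above the signal filter by their mean over the 12 arrays. None was called in TGFB KO against wild type, beside 12.2% of all genes called higher and 11.9% lower. Apoh (-0.71), Hnf4a (-0.75) and Cps1 (-0.65) were called lower in IFNko TGFB1 KO than in INFko TGFB+, beside 13.1% of all genes. Their limma adjusted p was 0.0349, 0.0476 and 0.0409, and each call was lost under 7 to 11 of 17 alternatives. The part of hepatocyte content in the lower signals of Hamp2, Tfr2, Hjv and Tmprss6 there was not tested. Quantile normalization left Apoa1 at 14.88 in every group, so the lack of calls for TGFB KO does not show equal hepatocyte signal. Summed deposited signals of the 9 markers in TGFB KO were 140991 to 168576, against 184132 to 190213 in wild type. One array, IFNko TGFB1 KO replicate 1, stood apart: its median signal was 61.3, against 33.8 to 42.6 on the other 11, and its Spearman correlations with them ran from 0.754 to 0.809, against 0.816 to 0.912 among the others. Summed pancreas markers reached 7069 on INFko TGFB+ replicate 2, against 233 to 707 on the other 11 arrays. Xist, a sign of female sex, was over 500 on 1 array per group. These were wild type replicate 2, TGFB KO replicate 1, INFko TGFB+ replicate 1 and IFNko TGFB1 KO replicate 2. In that order they gave Hamp 104, 48.2, 152 and 869, Hmox1 182, 3466, 253 and 2143, and Tfr2 2384, 2546, 4069 and 948. The part of sex was not tested beyond a fit with the Xist level as a covariate. The Gapdh 3′ over 5′ probe set ratio, a sign of RNA quality, was 0.738 to 1.07 in TGFB KO, 0.640 to 0.986 in wild type, 0.748 to 0.894 in IFNko TGFB1 KO and 0.652 to 0.670 in INFko TGFB+. The same ratio for actin was 1.33 to 1.55 in TGFB KO, 1.43 to 2.17 in wild type, 1.61 to 1.76 in IFNko TGFB1 KO and 2.05 to 2.25 in INFko TGFB+, so that between the last pair of groups the Gapdh ratio was higher and the actin ratio lower in IFNko TGFB1 KO, both without overlap.

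Among the measured genes, Hmox1 was higher and Hamp2 lower in the TGF-β1-deficient livers in both comparisons, while Hamp was higher and Tfr2 lower between the groups labelled IFN-γ knockout, with no call for either in TGFB KO against wild type and none in the test of the difference. Signals below are the deposited values. Fold changes come from log2(signal + 16) after quantile normalization, a scale that understates changes at low signal, and adjusted p-values are limma's with Benjamini-Hochberg adjustment over the 12760 genes, with calls at 0.05. In TGFB KO against wild type 2 of the 8 genes were called, 1 up and 1 down, beside 24.1% of all genes (12.2% higher, 11.9% lower). For IFNko TGFB1 KO against INFko TGFB+ the count was 4 of 8, 2 up and 2 down, beside 25.8% (12.7% higher, 13.1% lower). Their median log2 fold changes were 0.30 and 0.15, beside -0.056 and -0.0098 over all genes, and since the members moved in both directions these medians describe no common shift. On the normalized scale, 3 of the 8 genes were higher without overlap in TGFB KO than in wild type and 1 was lower, beside 18.4% and 21.9% of all genes. Between IFNko TGFB1 KO and INFko TGFB+, 5 were higher and 2 lower without overlap, beside 22.2% and 23.3%. Between IFNko TGFB1 KO and TGFB KO these counts were 3 and 2, beside 13.2% and 9.92%, and between INFko TGFB+ and wild type 1 and 0, beside 6.47% and 6.67%. Several of these separations were absent from the deposited signals, where the groups overlapped. This held for Cp in TGFB KO against wild type, and for Tfrc, Slc40a1 and Fth1 in IFNko TGFB1 KO against INFko TGFB+. It also held for Tfrc, Fth1 and Cp in IFNko TGFB1 KO against TGFB KO. With median centring, the changes of Tfrc, Slc40a1 and Fth1 in IFNko TGFB1 KO against INFko TGFB+ turned negative.

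**Figure D1:**
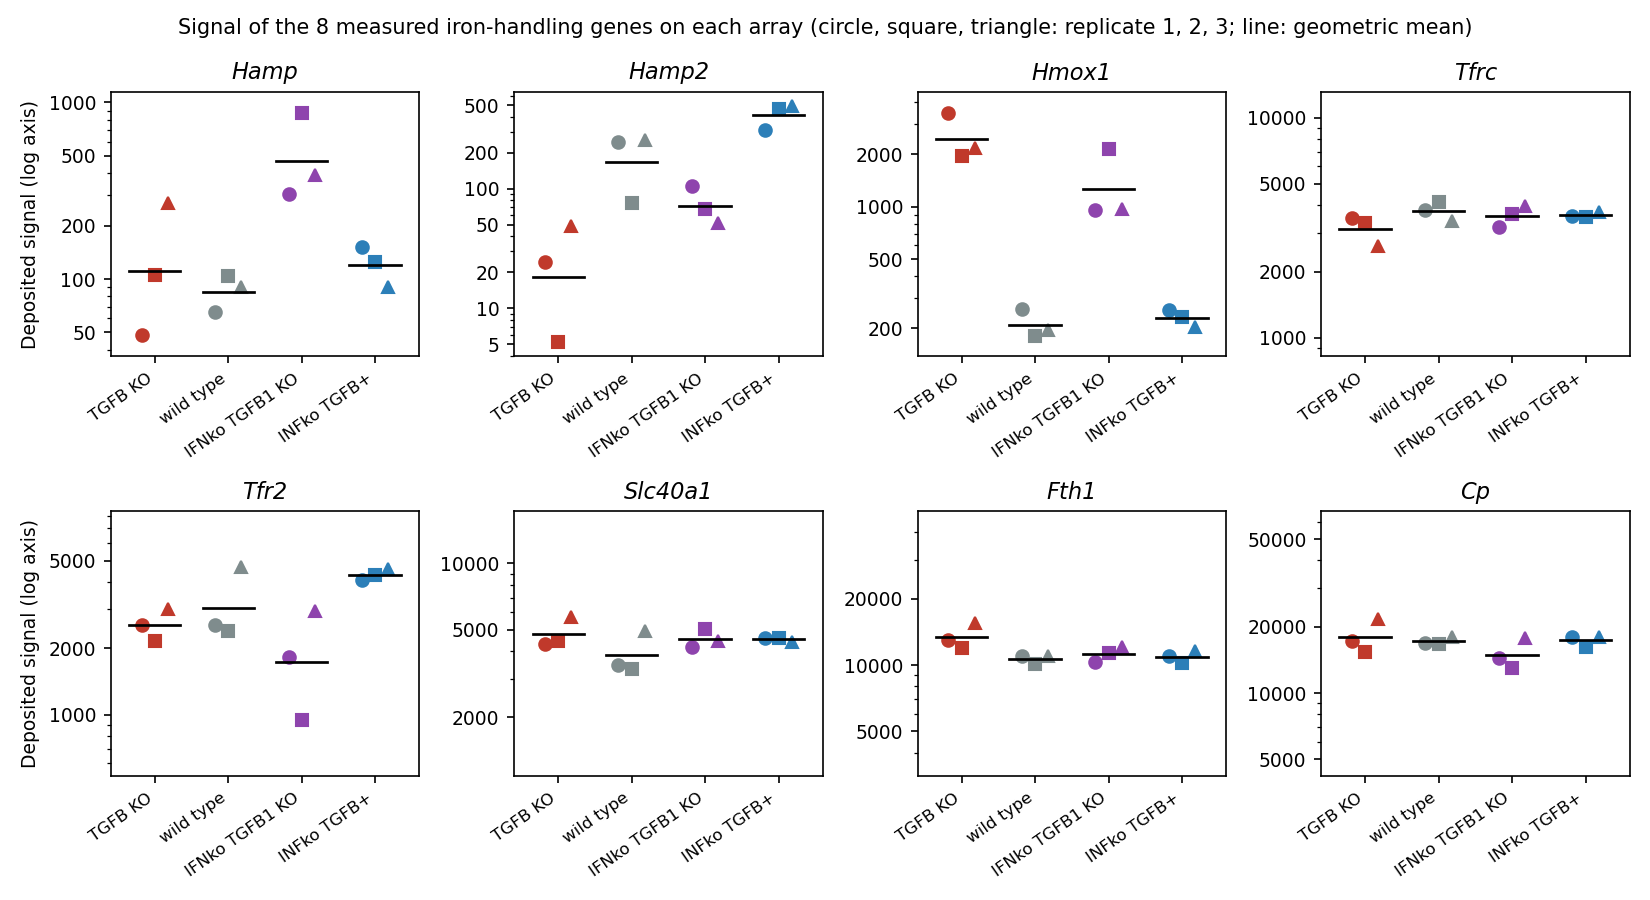
Deposited signal (log axis) of the 8 measured iron-handling genes on each of the 12 arrays, by group; circles, squares and triangles are replicates 1, 2 and 3, and lines are geometric means. Hmox1 lies between 962 and 3466 on the 6 TGF-β1-deficient arrays, above every other array, and Hamp is highest in IFNko TGFB1 KO, at 305 to 869.

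Hamp, on chromosome 7 (GRCm38.p6, 30942368 to 30944029), had signals of 48.2, 105 and 271 in TGFB KO livers, against 65.6, 104 and 90.1 in wild type. These groups overlapped, with the lowest and the highest of the 6 values both in TGFB KO, and the change of 0.32 ± 0.49 (log2, SE) was not past the threshold (limma adjusted p = 0.691, 95% interval -0.75 to 1.39). The 3 IFNko TGFB1 KO livers gave 305, 869 and 389, against 152, 125 and 90.8 in INFko TGFB+. Here every double-knockout liver was above every control. The log2 change was 1.80 ± 0.49, a 3.48-fold increase (limma adjusted p = 0.0189). It was not past the threshold without INFko TGFB+ replicate 2 (adjusted p = 0.0520), INFko TGFB+ replicate 3 (0.0682) or the second double knockout liver, at 869 (0.0782). Over all alternatives its log2 change ran from 1.36 to 2.08, with an adjusted p of 0.00639 to 0.0782. Without IFNko TGFB1 KO replicate 1, the array that stood apart, it was 2.08 (adjusted p = 0.0165).

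Set against the single knockout, Hamp was also higher in IFNko TGFB1 KO than in TGFB KO, with no overlap between 305 to 869 and 48.2 to 271 (1.91 ± 0.49, 3.75-fold, limma adjusted p = 0.0462). It was the 1 gene of 8 called in that comparison, beside 5.36% of all genes (2.54% higher, 2.82% lower). This call was lost under 8 of the 11 alternatives other than leaving out an array, and without TGFB KO replicate 1 (adjusted p = 0.159) or 2 (0.136). It was also lost without any single double knockout array (0.0523, 0.112 and 0.0635 without replicates 1, 2 and 3), and it stayed past the threshold without TGFB KO replicate 3, the liver with a Hamp signal of 271 (0.0130). Over all alternatives its adjusted p ran from 0.0130 to 0.181 and its log2 change from 1.41 to 2.46. The test of whether the loss of TGF-β1 acted differently in the mice labelled IFN-γ knockout gave 1.48 ± 0.69 for Hamp (unadjusted p = 0.0551 in the limma fit, adjusted p = 0.434), so a difference between those effects was not shown. None of the 8 genes was called in it, beside 0.87% of all genes (0.243% with a positive and 0.627% with a negative difference).

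A second probe set for Hamp gave 0.71 in TGFB KO against wild type and 1.59 in IFNko TGFB1 KO against INFko TGFB+ on the log2 scale. In the fit over 27022 probe sets the adjusted p for these was 0.392 and 0.0506, so the increase missed the threshold there, while the first probe set gave 0.0252, beside 8.53% of probe sets called higher. For IFNko TGFB1 KO against TGFB KO the second Hamp probe set gave 251, 830 and 292, against 72.7, 112 and 279, so that on it the groups overlapped (1.46, adjusted p = 0.171), and the first gave an adjusted p of 0.0666 in that fit. The pair of probe sets correlated at r = 0.954 over the 12 arrays.

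Hamp2 lies beside Hamp on chromosome 7 (30922372 to 30924181) and encodes a close paralog present in mice, whose overexpression there does not lower body iron as that of hepcidin does. Its signal was 24.4, 5.20 and 49.1 in TGFB KO livers, against 248, 75.7 and 257 in wild type. All 3 knockout livers were below all 3 controls, by -2.31 ± 0.44 on the log2 scale (limma adjusted p = 0.00326). The double knockout livers gave 107, 68.2 and 52.1, against 313, 467 and 491 in INFko TGFB+, again with no overlap (-2.41 ± 0.44, adjusted p = 0.00253). The difference between these effects was -0.11 ± 0.63, with a 95% interval of -1.49 to 1.27. Both calls held under every one of the 17 alternatives run for each, including the fit without INFko TGFB+ replicate 2, the array with pancreas signal (adjusted p = 0.0128), and that without IFNko TGFB1 KO replicate 1 (adjusted p = 0.00530). The 3 TGFB KO signals lie near the filter, set at a log2 level of 5.25. Hamp2 rests on 1 probe set of a kind (x_at) that may also bind similar transcripts. It was called lower in TGFB KO in the fit over probe sets too, beside 7.58% of probe sets called lower. Its second probe set, with group means of 4.61 to 16.6, was below the filter.

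The promoters of these neighbouring genes are shown because the genes moved in opposite directions in the same IFNko TGFB1 KO livers, Hamp up and Hamp2 down. In TGFB KO against wild type Hamp2 was called and Hamp was not. The part of the promoter sequences in these changes was not tested. The sequences are the 250 bases before each start site, 5′ to 3′ on the minus strand, from RefSeq on GRCm38.p6 (Hamp at chr7:30944030-30944279, Hamp2 at chr7:30924182-30924431), a reference from another strain than Balb/c. Capitals mark the GGCGCC element through which SMAD proteins act on the hepcidin promoter, or the bases aligned to it, and the STAT motif TTCNNNGAA.
Hamp: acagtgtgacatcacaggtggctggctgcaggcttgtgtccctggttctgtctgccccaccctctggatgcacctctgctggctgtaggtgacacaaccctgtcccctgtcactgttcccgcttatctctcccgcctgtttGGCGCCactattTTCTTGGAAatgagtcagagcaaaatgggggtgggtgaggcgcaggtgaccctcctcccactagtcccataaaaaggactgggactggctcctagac
Hamp2: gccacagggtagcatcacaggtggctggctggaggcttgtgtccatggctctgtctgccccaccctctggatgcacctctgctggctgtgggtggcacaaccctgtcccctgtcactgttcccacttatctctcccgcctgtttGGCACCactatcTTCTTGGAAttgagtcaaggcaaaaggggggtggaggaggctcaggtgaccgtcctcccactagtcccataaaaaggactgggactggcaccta

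The sequences matched at 227 of 247 aligned positions (91.9%). In Hamp the first element starts 109 bases before the start site and the STAT motif 97 bases before it. In Hamp2 the STAT motif starts 94 bases before the start site and has no substitution, while the other element carries 1, G4A, counted from the first base of GGCGCC with the Hamp base first. Over 32851 promoter windows of this length in the RefSeq table, 9.59% held GGCGCC, 7.02% held TTCNNNGAA and 0.368% held both; each motif reads the same on both strands and they do not overlap in Hamp. Of the 10 genes, 7 had an entry; those without one were Hmox1, Slc40a1 and Trf. GGCGCC was also in a Tfrc window, and no member other than Hamp held both. GGCGCC was searched as a known element of the hepcidin promoter, so its match in Hamp is no finding. These matches are letters in a window and were not tested as binding sites.

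Hmox1 (chromosome 8, 75093618 to 75100593) had the largest change of the 8 genes in TGFB KO against wild type. Its signal was 3466, 1954 and 2187 in TGFB KO livers, against 257, 182 and 196 in wild type. The groups stood far apart, a log2 difference of 3.41 ± 0.32 (limma adjusted p = 2.61e-05). It was 962, 2143 and 976 in IFNko TGFB1 KO livers, against 253, 232 and 203 in INFko TGFB+ (2.47 ± 0.32, adjusted p = 0.000351). Both calls held under all 17 alternatives run for each, with 2.61 in the second comparison without IFNko TGFB1 KO replicate 1 (adjusted p = 0.000904). Between the knockouts, IFNko TGFB1 KO was -0.84 ± 0.32 relative to TGFB KO and the ranges overlapped (adjusted p = 0.167), with replicate 2 of the double knockout, at 2143, among the single knockouts. Without that array the difference was -1.23 (adjusted p = 0.0228).

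Macrophage markers moved with Hmox1. All 13 measured Kupffer cell and macrophage markers were called higher in both comparisons, beside 12.2% and 12.7% of all genes. Their summed signal was 47462 to 51748 in TGFB KO against 7535 to 9615 in wild type, and 33110 to 46039 in IFNko TGFB1 KO against 7471 to 7606 in INFko TGFB+. Summed T cell markers were 810 to 979 in TGFB KO, 154 to 218 in wild type, 2210 to 3582 in IFNko TGFB1 KO and 127 to 207 in INFko TGFB+. Summed neutrophil markers were 22438 to 35141 in TGFB KO against 6522 to 13435 in wild type, and 19988 to 53000 in IFNko TGFB1 KO against 9386 to 15227 in INFko TGFB+. The part of these cells in the Hmox1 result was not tested. The 5 tested genes whose levels followed Hmox1 most closely over the 12 arrays were Slc15a3 (r = 0.990), Hilpda (0.990), Ccl4 (0.989), Npc2 (0.989) and Abcg1 (0.989). For Hamp they were Lsm4 (r = 0.950), Rps4x (0.943), Arap2 (0.941), Rpl37a (0.940) and Nudt21 (0.934). These correlations describe 12 arrays that fall into groups, and carry no test.

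**Figure D2:**
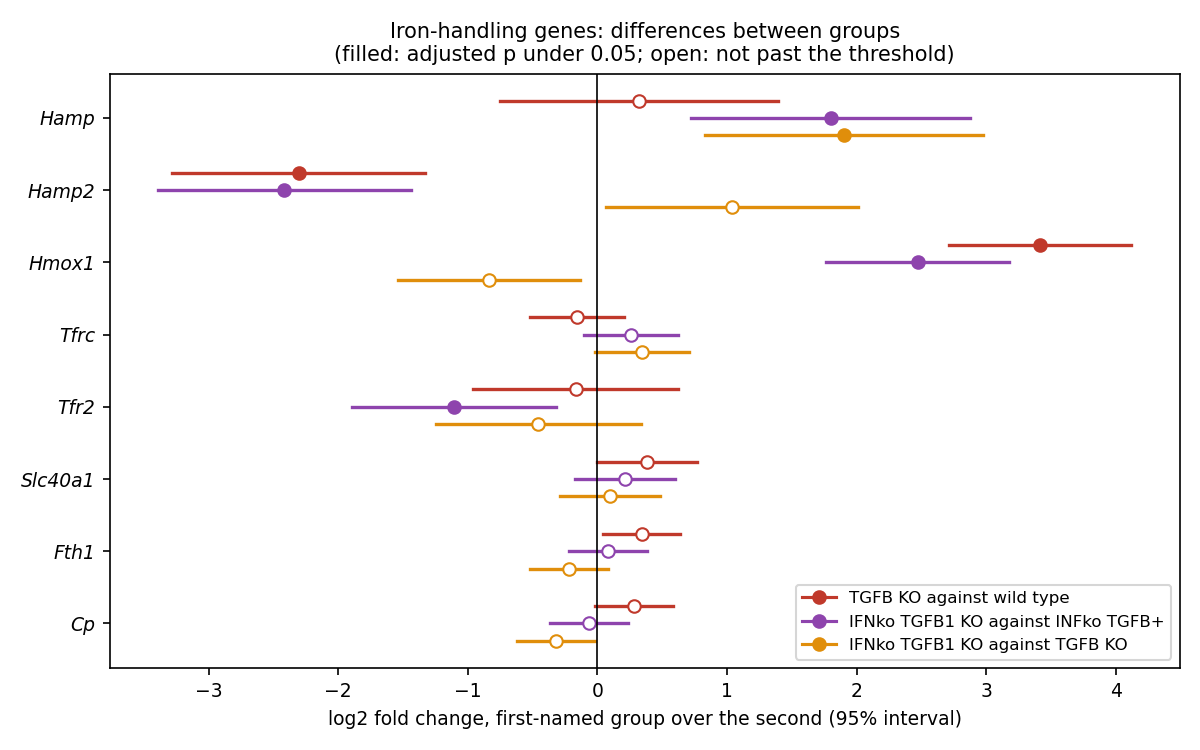
Log2 fold change (x axis, first-named group over the second) with its 95% interval for the 8 measured genes in 3 comparisons; filled points have a limma adjusted p under 0.05. Hmox1 at 3.41 and 2.47 and Hamp2 at -2.31 and -2.41 are filled in both TGF-β1 comparisons, and Hamp at 1.80 and 1.91 in those with the double knockout on top.

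Tfr2 (chromosome 5, 137569822 to 137588081) is the liver's transferrin receptor for iron sensing and acts upstream of hepcidin. It gave 1831, 948 and 2961 in IFNko TGFB1 KO livers, against 4069, 4277 and 4557 in INFko TGFB+. All 3 were below the controls, though spread over a wider range (-1.11 ± 0.36, limma adjusted p = 0.0422). In TGFB KO it was 2546, 2154 and 3017, against 2535, 2384 and 4658 in wild type, overlapping groups with a change of -0.17 ± 0.36 (adjusted p = 0.785, 95% interval -0.96 to 0.62). The difference between the effects was -0.94 ± 0.51 (adjusted p = 0.512).

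The Tfr2 call in the groups labelled IFN-γ knockout was fragile on the probe set used. It was lost with a pseudocount of 1 (adjusted p = 0.0564), with no filter (0.0632), in a fit of the 2 groups alone (0.0896) and with the Gapdh ratio as a covariate, a fit added after seeing the data (-0.69, adjusted p = 0.146). The call also needed each INFko TGFB+ array (adjusted p of 0.0887, 0.103 and 0.107 without replicates 1, 2 and 3). It needed the first and second double knockout arrays as well (0.0544 and, with a change of -0.65, 0.127), in a range of 0.00498 to 0.146 over all alternatives. The other Tfr2 probe set, not of the x_at kind, read 1048, 962 and 1296 in IFNko TGFB1 KO, against 2485, 2487 and 2311 in INFko TGFB+. That is a tighter separation, -0.97 ± 0.20 on the log2 scale with an adjusted p of 0.00600 in the limma fit over all probe sets, beside 8.98% of probe sets called lower. In TGFB KO it was 1650, 1929 and 1374, against 2864, 2748 and 2149 in wild type (-0.56 ± 0.20, adjusted p = 0.0760).

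Tfrc (chromosome 16, 32608896 to 32632794), the receptor through which most cells take up transferrin iron, was not called in any comparison. Its signals were 3497, 3316 and 2602 in TGFB KO, against 3797, 4140 and 3385 in wild type (-0.16 ± 0.17, limma adjusted p = 0.547), and 3191, 3639 and 3968 in IFNko TGFB1 KO, against 3579, 3541 and 3728 in INFko TGFB+ (0.26 ± 0.17, adjusted p = 0.287). The second difference turned to -0.012 with the deposited scaling alone and to -0.26 with arrays centred on their medians. A dimmer Tfrc probe set was lower in TGFB KO than in wild type on every array, by -0.86 ± 0.32, but missed the threshold (adjusted p = 0.0876).

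Slc40a1, ferroportin (chromosome 1, 45908070 to 45926532), gave 4299, 4469 and 5684 in TGFB KO livers, against 3474, 3303 and 4942 in wild type. One control overlapped the knockouts, and the change of 0.38 ± 0.18 was not past the threshold (limma adjusted p = 0.142), though without that array, wild type replicate 3, it was 0.55 (adjusted p = 0.0411). Its signals were 4156, 5032 and 4423 in IFNko TGFB1 KO, against 4607, 4584 and 4412 in INFko TGFB+ (0.21 ± 0.18, adjusted p = 0.416). Cp, ceruloplasmin (chromosome 3, 19956933 to 20009750), oxidises the iron that ferroportin exports so that transferrin can bind it. It gave 17261, 15445 and 21766 in TGFB KO, against 16870, 16716 and 18038 in wild type (0.28 ± 0.14, adjusted p = 0.161), and 14426, 12968 and 17796 in IFNko TGFB1 KO, against 18022, 16199 and 17989 in INFko TGFB+ (-0.06 ± 0.14, adjusted p = 0.768). On the probe set used for Cp the 95% intervals, -0.016 to 0.58 and -0.36 to 0.23, leave out a doubling or a halving. Those of its other probe sets do not all do so (-1.14 to 0.68 and -1.24 to 0.58 on 1 of them). None of its 8 probe sets was called.

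Fth1 (chromosome 19, 9980600 to 9985111) encodes the heavy chain of ferritin, the shell in which cells store iron, and is also controlled at translation, which these arrays do not measure. Its signals were 13033, 11895 and 15501 in TGFB KO livers, against 10984, 10126 and 11031 in wild type. The groups did not overlap, but the change of 0.34 ± 0.14 missed the threshold (limma adjusted p = 0.0925). On its other probe set TGFB KO was 0.51 ± 0.16 higher, which passed in the fit over all probe sets (adjusted p = 0.0488, beside 8.8% called higher), as did the mean of both probe sets at the gene level (0.43, adjusted p = 0.0357). The probe set used read 10371, 11292 and 12122 in IFNko TGFB1 KO, against 11032, 10170 and 11606 in INFko TGFB+ (0.08 ± 0.14, adjusted p = 0.709). The difference between these effects was not past the threshold (-0.26 ± 0.19, adjusted p = 0.658). The probe set used for Fth1 is of a kind (s_at) shared by several transcripts.

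**Figure D3:**
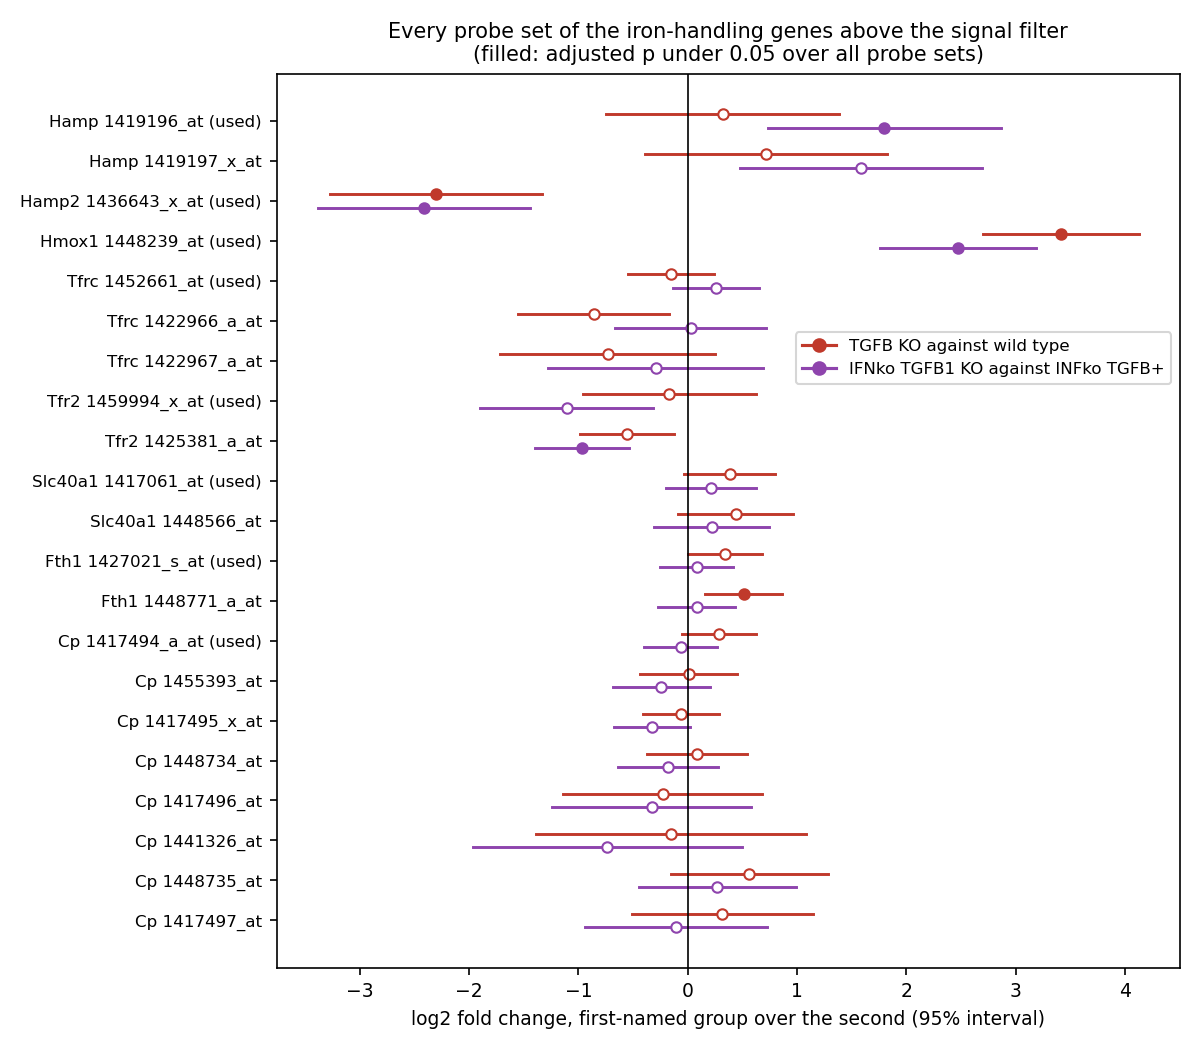
Log2 fold change with its 95% interval for each of the 21 member probe sets above the signal filter, in TGFB KO against wild type and IFNko TGFB1 KO against INFko TGFB+; filled points have an adjusted p under 0.05 over 27022 probe sets. The Hamp probe sets lie together at 1.80 and 1.59 in the second comparison, and the Fth1 pair at 0.34 and 0.51 in the first.

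Across the 4 groups, the order of the levels on the normalized log2 scale differed between the hormone genes. Hamp was highest in IFNko TGFB1 KO (8.94), with no overlap with INFko TGFB+ (7.14), TGFB KO (7.04) and wild type (6.72), which overlapped one another in that order. Hamp2 was highest in INFko TGFB+ (8.75), then wild type (7.60), IFNko TGFB1 KO (6.34) and TGFB KO (5.30), and no neighbours overlapped on this scale. In the deposited signals, wild type (75.7 to 257) and IFNko TGFB1 KO (52.1 to 107) did overlap. Hmox1 ran from TGFB KO (11.28) and IFNko TGFB1 KO (10.44), which overlapped, down to INFko TGFB+ (7.97) and wild type (7.86), which overlapped as well. For the IFN-γ knockout alone, as labelled, INFko TGFB+ against wild type, none of the 8 genes was called; none of all 12760 genes was either (0% by limma, with 650 at an unadjusted p under 0.05). Hamp2 had the largest size there, 1.15 ± 0.44 (adjusted p = 0.910). The 5 comparisons share groups and are not independent of each other.

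The known regulators of hepcidin moved in both directions. The BMP and SMAD arm, with 18 genes tested, had 3 up and 4 down in TGFB KO against wild type, and 4 up and 5 down in IFNko TGFB1 KO against INFko TGFB+. Their medians were -0.089 and 0.077. Over all genes 12.2% were higher and 11.9% lower in the first comparison, and 12.7% and 13.1% in the second, and the counts of this and the following lists stand beside those shares. The 4 that were lower in TGFB KO became 2 when replicate 2 or 3 of wild type, or 1 or 3 of TGFB KO, was left out, and with median centring, under which the 4 higher in IFNko TGFB1 KO became 1. Tmprss6, the protease that cuts hemojuvelin and so restrains hepcidin, was 892 to 1036 in TGFB KO against 2709 to 3299 in wild type (-1.53 ± 0.32, limma adjusted p = 0.00517), and 358 to 1058 in IFNko TGFB1 KO against 2692 to 2876 in INFko TGFB+ (-1.92 ± 0.32, adjusted p = 0.00151). Hjv, the BMP co-receptor that the protease cuts, was 131 to 275 in IFNko TGFB1 KO against 626 to 690 in INFko TGFB+ (-1.75 ± 0.24, adjusted p = 0.000431). Hjv was also called lower in TGFB KO than in wild type (-0.73 ± 0.24, adjusted p = 0.0428), a call lost under 11 of 17 alternatives, among them leaving out any 1 array. Hfe, a partner of Tfr2 upstream of hepcidin, was 730 to 935 in IFNko TGFB1 KO, against 409 to 426 in INFko TGFB+ (1.04 ± 0.17, adjusted p = 0.00132), and was 0.72 ± 0.17 higher than in TGFB KO (adjusted p = 0.0327), a call lost under 10 of 17 alternatives, including without TGFB KO replicate 1 or 2 or IFNko TGFB1 KO replicate 1 or 2 (adjusted p up to 0.123). Acvr2a, a type II receptor for BMPs and activins, was lower in both comparisons (-1.02 and -1.19). Id2, a SMAD target gene, was higher in TGFB KO than in wild type (1.48 ± 0.27, adjusted p = 0.00234) and in IFNko TGFB1 KO than in INFko TGFB+ (1.42 ± 0.27, adjusted p = 0.00296). Its relatives Id1 (0.99 ± 0.28, adjusted p = 0.0215) and Id3 (0.98 ± 0.21, adjusted p = 0.00600), named after their values were seen, were called higher in the second of these comparisons. In TGFB KO against wild type Id1 gave 0.46 and Id3 0.063, not past the threshold. A difference between the effects was not called for any gene of this arm. Fgl1, a liver-secreted protein that restrains hepcidin by binding BMP6, was 7655 to 9681 in TGFB KO, against 1608 to 4621 in wild type (1.85 ± 0.33, adjusted p = 0.00211).

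The IL-6 and STAT3 arm, with 14 genes tested, had 7 up and 3 down in TGFB KO against wild type, and 6 up and 3 down in IFNko TGFB1 KO against INFko TGFB+, with medians of 0.79 and 0.86. With median centring the 6 became 2. Il1b, a cytokine that can raise hepcidin through C/EBPδ in mice, was 910 to 1462 in TGFB KO, against 52.6 to 93.1 in wild type, and 299 to 481 in IFNko TGFB1 KO, against 86.2 to 101.6 in INFko TGFB+ (log2 changes of 3.71 ± 0.26 and 1.89 ± 0.26). Cebpd, which encodes C/EBPδ, rose by 1.80 ± 0.26 and 1.86 ± 0.26. Socs3, a target and inhibitor of STAT3, was 443 to 1308 in TGFB KO against 62.8 to 182 in wild type (2.59 ± 0.41, limma adjusted p = 0.000985). Socs3, Stat3 and Il22ra1 were called higher there but were not called in IFNko TGFB1 KO against INFko TGFB+. Il6st and Jak1 were called higher only in the latter. Cebpa, which encodes a hepatocyte factor needed for hepcidin transcription, was 398 to 577 in IFNko TGFB1 KO against 1456 to 1627 in INFko TGFB+ (-1.61 ± 0.30, limma adjusted p = 0.00255). Cebpa was also called lower in TGFB KO than in wild type, and Inhbb and Creb3l3 were called lower in both comparisons. Between the knockouts, Il1b (-1.52 ± 0.26, adjusted p = 0.00581), Stat3 (-0.85 ± 0.17, adjusted p = 0.0169) and Cebpb (-0.86 ± 0.20, adjusted p = 0.0273) were lower in IFNko TGFB1 KO than in TGFB KO. The Stat3 call was lost without TGFB KO replicate 1 or 2 and that of Cebpb without any 1 TGFB KO array or IFNko TGFB1 KO replicate 1 (adjusted p up to 0.0725 and 0.0783). In a fit of the 2 groups alone all 3 were lost.

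**Figure D4:**
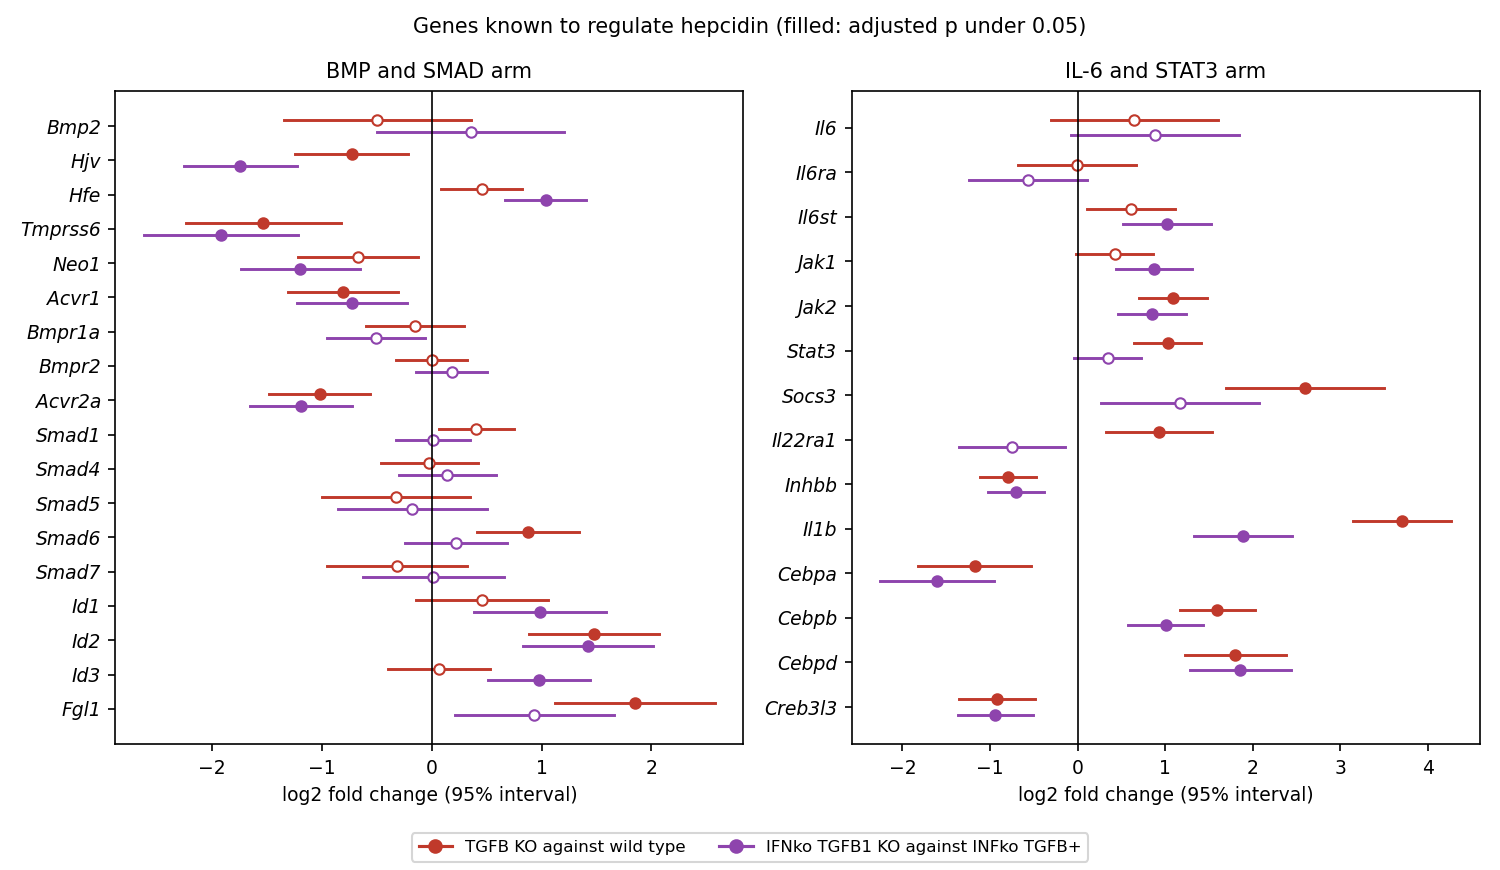
Log2 fold change (x axis) with its 95% interval for the tested regulators of hepcidin, 18 in the BMP and SMAD arm and 14 in the IL-6 and STAT3 arm, in TGFB KO against wild type and IFNko TGFB1 KO against INFko TGFB+; filled points have a limma adjusted p under 0.05. Tmprss6 and Hjv lie left of 0 in both comparisons and Il1b farthest right, at 3.71 and 1.89.

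Among 19 genes of iron uptake, reduction and trafficking, TGFB KO livers had 7 higher and 1 lower than wild type (median 0.29), and IFNko TGFB1 KO livers 4 higher and 1 lower than INFko TGFB+ (median 0.17). The 7 became 4 without wild type replicate 1, and the second 4 became 2 with median centring. Lcn2, lipocalin 2, which binds bacterial siderophores and withholds their iron, was 13403 to 14999 in TGFB KO, against 396 to 1174 in wild type, and 5778 to 10930 in IFNko TGFB1 KO, against 655 to 871 in INFko TGFB+ (4.23 ± 0.33 and 3.56 ± 0.33). Slc11a1, which pumps iron out of the phagosomes of macrophages, rose by 3.05 ± 0.24 in TGFB KO and 1.86 ± 0.24 in IFNko TGFB1 KO. It was lower in IFNko TGFB1 KO than in TGFB KO (-1.25 ± 0.24, limma adjusted p = 0.0112). Slc39a8, a metal importer, was the gene that fell, at 324 to 368 in TGFB KO against 705 to 941 in wild type (-1.27 ± 0.20) and by -0.99 ± 0.20 between the groups labelled IFN-γ knockout. Ncoa4, which delivers ferritin for breakdown, was 1254 to 2096 in TGFB KO against 533 to 937 in wild type (1.13 ± 0.25, adjusted p = 0.00731). The list for binding to iron-responsive elements and its control held 3 genes, Aco1, Ireb2 and Fbxl5. Of these, Fbxl5, which marks the binding protein IRP2 for breakdown, was called higher in TGFB KO than in wild type (0.96 ± 0.23, limma adjusted p = 0.0106). It was called lower in IFNko TGFB1 KO than in TGFB KO (-0.88 ± 0.23, adjusted p = 0.0482). This last call was lost without any 1 array and under 13 of 17 alternatives in all (adjusted p up to 0.127).

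Beside Hmox1, 4 of 11 genes of heme scavenging, transport and breakdown were higher and none lower in TGFB KO than in wild type, and 3 were higher and 1 lower in IFNko TGFB1 KO than in INFko TGFB+ (medians 0.32 and 0.17). The 1 lower became 0 without any 1 array other than IFNko TGFB1 KO replicate 3. Cd163, the macrophage receptor for hemoglobin bound to haptoglobin, was 646 to 680 in TGFB KO, against 84.8 to 178 in wild type, and 465 to 685 in IFNko TGFB1 KO, against 105 to 141 in INFko TGFB+ (2.20 ± 0.24 and 2.00 ± 0.24). Blvra, biliverdin reductase, which acts on the product of heme oxygenase, rose by 1.03 ± 0.17 and 1.32 ± 0.17. Of 9 heme synthesis genes, 1 was higher and 3 lower in TGFB KO than in wild type, and 2 were lower in IFNko TGFB1 KO than in INFko TGFB+ (medians -0.18 and -0.33). These 2 became 0 without any 1 INFko TGFB+ array or IFNko TGFB1 KO replicate 2, and 1 without IFNko TGFB1 KO replicate 1; the 3 became 1 with median centring. Alad, the enzyme that makes porphobilinogen, was 2488 to 2885 in TGFB KO, against 5330 to 5785 in wild type (-1.01 ± 0.16, limma adjusted p = 0.000949). Alas2, the erythroid form of the first enzyme, was 954 to 2272 in TGFB KO, against 423 to 678 in wild type (1.51 ± 0.33, limma adjusted p = 0.00712). It was the 1 called among 10 tested erythroid markers. The summed signal of the 12 measured markers was 2080 to 4243 in TGFB KO against 1323 to 2182 in wild type. That sum includes Alas2 itself, and also Hba-a1 and Hba-a2, which were below the filter. The part of erythroid cells in the Alas2 change was not tested.

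Hmox1 is also a target of the transcription factor NRF2 and the repressor BACH1. That axis gave 4 genes higher and 3 lower of 12 tested in TGFB KO against wild type, and 3 higher and 2 lower in IFNko TGFB1 KO against INFko TGFB+ (medians 0.35 and -0.081). The 3 lower in TGFB KO became 0 when the first array of either group was left out, and 1 without the third of wild type. The 4 higher became 2 when replicate 3 of wild type, or 1 or 2 of TGFB KO, was left out, and the 3 higher in IFNko TGFB1 KO became 1 without any 1 array other than IFNko TGFB1 KO replicate 3. Those that rose include Maff, a small MAF partner (2.13 ± 0.32 and 1.83 ± 0.32), and, in TGFB KO, Bach1 itself (1.13 ± 0.19, limma adjusted p = 0.00140). The NRF2 targets of the list went both ways. Gsr, glutathione reductase (0.90 ± 0.30 and 1.05 ± 0.30), and Txnrd1, thioredoxin reductase, named after its values were seen (0.54 ± 0.17 and 0.52 ± 0.17), were called higher in both comparisons, each call being lost under 8 to 11 of 17 alternatives. Gclc and Gclm, which encode both subunits of the first enzyme of glutathione synthesis, were called lower in both. Gclc was 1079 to 1674 in TGFB KO, against 2848 to 5072 in wild type, and 503 to 1617 in IFNko TGFB1 KO, against 4253 to 4995 in INFko TGFB+ (-1.54 ± 0.40 and -1.97 ± 0.40). Nqo1 was lower in TGFB KO than in wild type (-1.09 ± 0.27, adjusted p = 0.0131). Summed hepatocyte markers were 140991 to 168576 in TGFB KO against 184132 to 190213 in wild type, and 106145 to 162671 in IFNko TGFB1 KO against 159663 to 193710 in INFko TGFB+, and their part in the lower signal of liver genes was not tested. Iron-sulfur cluster assembly genes gave 2 of 10 lower in each comparison (medians -0.31 and -0.26), Nfs1, the cysteine desulfurase (-0.63 ± 0.15 and -0.89 ± 0.15), and Nfu1. With median centring 0 remained lower in TGFB KO. Nfu1 was lost when replicate 2 or 3 of wild type, or 2 of TGFB KO, was left out, and in the second comparison without any 1 array other than IFNko TGFB1 KO replicate 3.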

How the data were processed

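The 12 liver arrays hold linear signal intensity per probe set, as deposited by the authors, scaled so that each array's 2% trimmed mean is alike; per the labels' protocols, RNA was extracted with Trizol and given one-cycle labelling, and the software is not given in the sources used here. Of 45101 probe sets, 34958 had a single gene symbol in the platform annotation, 932 several and 9211 none, and 34754 were updated through current gene tables. Signals were taken as log2(signal + 16) and quantile normalized, since array medians differed by 0.634 on the log2 scale. Probe sets whose mean over the 12 arrays was below the 40th percentile (log2 5.25) were left out. Detection calls were not used here. limma 3.58.1 in R 4.3.3 fitted 1 mean per group over all 12 arrays, with eBayes and Benjamini-Hochberg adjustment over 12760 genes (threshold 0.05); for single probe sets the fit ran over 27022. The method was tested on simulated data. Promoters were read with Python 3.11.15 and aligned with biopython 1.88. The number of arrays limits the precision. The design text states 1 mouse per array. Each p-value sets a group difference against the spread between mice within groups, pooled over all groups and moderated by limma across genes. The genes and lists were chosen with earlier results of these data known. Named genes are the listed 10, Tgfb1 and Ifng, up to 4 genes of smallest p per list and comparison, and the 5 closest to Hamp and to Hmox1. Alternatives changed the scaling, pseudocount, filter, probe set rule, arrays and covariates. After each gene's group means were subtracted, same-numbered arrays of TGFB KO and wild type correlated at 0.065 to 0.343. Those of IFNko TGFB1 KO and INFko TGFB+ correlated at -0.055 to -7.4e-05. The 0.343 was for replicate 3, where TGFB KO reached at most -0.167 with the other wild type numbers. The numbers were not taken as pairs in the main fit, and a replicate block was among the alternatives.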

Additional observations from a re-analysis of the deposited data

Results flagged for a closer look

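Il1b was the 1 gene among the iron lists whose TGF-β1 effect differed by a direct test between the mice with and without the IFN-γ knockout label. The difference, the effect in IFNko TGFB1 KO against INFko TGFB+ minus that in TGFB KO against wild type, was -1.82 ± 0.36 on the log2 scale (limma adjusted p = 0.0421), since Il1b was 910 to 1462 in TGFB KO but 299 to 481 in IFNko TGFB1 KO, against 52.6 to 93.1 in wild type and 86.2 to 101.6 in INFko TGFB+. The call was lost under 14 of 22 alternatives (adjusted p of 0.00771 to 0.126 over all of them). It held without TGFB KO replicate 2 or IFNko TGFB1 KO replicate 1 and was lost without any 1 of the other 10 arrays. When IFNko TGFB1 KO replicate 3 was left out, 1 gene of the BMP and SMAD arm was called instead.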

How the results depend on the processing

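The count of members called in IFNko TGFB1 KO against TGFB KO was 1, and 0 with median centring, a pseudocount of 1, no filter, the mean of all probe sets, only the 2 groups compared, the replicate block, Xist level or the Gapdh ratio as a covariate (the last chosen after seeing the data); Hamp's adjusted p was then 0.0835, 0.0740, 0.0697, 0.0729, 0.181, 0.0527, 0.0558 and 0.103. Leaving out 1 array gave 0 to 1 there and 2 to 4 members in IFNko TGFB1 KO against INFko TGFB+, where the count was 4, and 2 to 3 in TGFB KO against wild type. With the replicate block no other member changed its call, and 19 genes were called higher in the difference of the effects, against 31. Signs that turned were all of values not past the threshold: for TGFB KO against wild type, Tfr2 became 0.11 with the Gapdh covariate and 0.12 without wild type replicate 3, and Hamp -0.24 without TGFB KO replicate 3; with 1 array left out they ran from -0.35 to 0.12 and from -0.24 to 0.81. For IFNko TGFB1 KO against INFko TGFB+, Tfrc became -0.012 (deposited scaling), -0.26 (median centring) and -0.0021 (mean of probe sets), Slc40a1 -0.0035 and -0.25 under the first pair of these, and Fth1 -0.20 with median centring. The Hamp2 difference of effects became 0.018 (deposited scaling), 0.42 (pseudocount 1) and 0.058 (Gapdh covariate), and -0.53 to 0.38 with 1 array left out; that of Tfrc became -0.057 with median centring. For IFNko TGFB1 KO against TGFB KO, Slc40a1 became -0.080, -0.29 and -0.018 (deposited scaling, median centring, Gapdh covariate) and Tfrc -0.0092 (median centring). For INFko TGFB+ against wild type, Tfrc became 0.048 (median centring) and 0.10, Fth1 -0.013 and Cp -0.015 (Gapdh covariate), and Fth1 -0.015 without wild type replicate 2 (-0.015 to 0.075 with 1 array left out). The cause of these changes was not tested. Median centring moved the median of all genes by -0.14 in IFNko TGFB1 KO against INFko TGFB+, -0.26 in the difference and -0.16 in IFNko TGFB1 KO against TGFB KO. It changed the counts higher and lower to 1448 and 893 in TGFB KO against wild type (1553 and 1524 otherwise), 988 and 1864 in IFNko TGFB1 KO against INFko TGFB+ (1618 and 1673), 9 and 101 in the difference (31 and 80) and 100 and 387 in IFNko TGFB1 KO against TGFB KO (324 and 360). Counts in the difference were 14 and 43 with a pseudocount of 1, and 68 and 144 with 64, while those higher were 17 with no filter and 50 with a filter at the 60th percentile. In IFNko TGFB1 KO against TGFB KO, 191 were higher with no filter, and 65 and 148 were higher and lower with only the 2 groups. Leaving out 1 array gave 7 to 52 and 39 to 108 genes higher and lower in the difference (7 and 39 without INFko TGFB+ replicate 2), 138 to 324 and 189 to 419 in IFNko TGFB1 KO against TGFB KO (138 and 189 without TGFB KO replicate 1), and 1089 lower in IFNko TGFB1 KO against INFko TGFB+ without INFko TGFB+ replicate 2. The iron lists' counts changed by over 1.5 times, or from or to 0, in 168 recomputations. In 1272 they were unchanged or within 1.5 times.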
